A study of Mus musculus with 10 samples.

Results

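The Notch genes described here are 10 genes of 1 signalling pathway, chosen by symbol from the 22180 genes with a named probe set on the arrays. They comprise 3 receptor genes (Notch1, Notch2 and Notch3), 4 ligand genes (Jag1, Jag2, Dll1 and Dll4), Lfng, which encodes an enzyme that modifies the receptors, Maml2, which encodes a nuclear coactivator, and Hes1, a target gene. All 10 were measured, and 8 of them lay above the median gene on all 10 arrays, with Notch3 and Dll1 the exceptions.

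Notch signalling passes between touching cells. A ligand of the Jagged or Delta-like family on a cell binds a Notch receptor on its neighbour, ADAM10 and then gamma-secretase cut the receptor, and the freed intracellular part joins RBPJ and a Mastermind-like coactivator on DNA to switch on targets such as Hes1. Fringe enzymes, of which Lfng is a member, add sugar to the receptor and shift its preference between Delta-like and Jagged ligands. In the lung the pathway is known for setting the balance of secretory and ciliated airway cells and for its part in alveolar development, and Notch1 and Dll4 are also well known from blood vessels.

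Gene expression was measured on 10 arrays of sorted mouse lung cells labelled as type 2 alveolar epithelial cells (AEC2s), the surfactant-producing cells of the alveolus, at postnatal day 4 (a description shared by all samples also mentions P3 and adult cells, against their titles and age labels). The 5 SP-C+ samples were YFP+ cells of SftpcCreERT2-R26REYFP mice, in which a tamoxifen-dependent Cre under the surfactant protein C gene turns on the reporter, taken after 24 h of lineage tracing. The 5 Axin2+ samples were TdTomato+, EpCAM+, CD31-, CD45- cells of Axin2CreERT2-TdTom mice, in which the Cre is driven by Axin2, a target of Wnt signalling; no AEC2 marker was named in this gate. The strain background, shared by all mice, was a mix of C57BL/6, 129S6 and CD-1. The labels name no treatment, and the tracing time of the Axin2+ samples is not given in the sources used here. Mouse line, reporter, gate and possibly tracing time differ between the groups together, so they cannot be told apart from the cell label. No label says whether replicates are separate animals or pools. The p-values therefore weigh a difference only against the spread between these samples, which the test moderates over all genes.

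Array medians over all probe sets lay between 5.89 and 5.97 on the log2 scale, and the number of arrays limits the precision. The labelled cell type was checked first. All 12 AEC2 markers lay above the median gene on every array, with list means of 13.07 to 13.13 in SP-C+ and 12.86 to 12.98 in Axin2+ arrays. Epcam measured 10.61 ± 0.32 (SD, n = 5) in SP-C+ and 10.68 ± 0.10 in Axin2+ arrays, and Ptprc, the CD45 gene, measured 4.24 ± 0.35 and 3.94 ± 0.17. Other genes of the leukocyte list went otherwise. Of its 11 genes limma called 1 higher in Axin2+ arrays, Csf1r by 2.50, and 1 lower, Mrc1 by 0.42 (each 9.09%, against 8.61% and 8.95% of all genes). Cd68 lay above the median gene on all 10 arrays, at 10.14 ± 0.49 in SP-C+ and 9.48 ± 0.30 in Axin2+ arrays, without a call. Axin2 itself was lower in Axin2+ arrays, at 7.93 ± 0.12 against 8.46 ± 0.06, and where its probe set lies relative to the Cre is not given in the sources used here. Sftpc measured 14.02 ± 0.03 in SP-C+ and 14.11 ± 0.03 in Axin2+ arrays (adjusted p = 0.324 in limma). Its groups did not overlap, and its values lay near the highest of any probe set (14.16), so this comparison carries little weight. Of the 12 AEC2 markers limma called 0 higher (8.61% of all genes) and 2 lower (16.7%, against 8.95%). These were Cebpa and Sftpd, lower by 0.62 and 0.32 in Axin2+ arrays. The groups did not overlap for 6 of the 12, against 15.0% of all genes. Of these, 5 were lower in Axin2+ arrays (Cebpa, Sftpd and, without a call, Slc34a2, Napsa and Lpcat1) and 1, Sftpc, was higher. Most markers of type 1 alveolar, ciliated and club cells were far higher in Axin2+ arrays, while most of those of basal and neuroendocrine cells were not. Ccno of the ciliated list was called lower. The mean of the type 1 alveolar cell (AEC1) list of 16 genes lay between 9.29 and 9.75 in SP-C+ and between 11.54 and 11.90 in Axin2+ arrays, that of 14 ciliated cell genes between 5.97 and 6.08 and between 7.87 and 8.22, and that of 9 club and secretory genes between 6.53 and 6.91 and between 7.73 and 8.35. The mean of 6 basal and neuroendocrine genes lay between 5.43 and 5.74 and between 5.58 and 5.74, with 1 called higher. In SP-C+ replicates 4 and 5 a list of 17 cell cycle genes averaged 7.85 and 8.07, against 6.99 to 7.06 in replicates 1, 2 and 3 and 7.85 to 8.86 in Axin2+ arrays. Of these 17 genes limma called 12 higher in Axin2+ arrays (70.6%, against 8.61% of all genes) and 0 lower (8.95%). Their median difference was 1.04. SP-C+ replicate 1 had the highest mean of all arrays in endothelial genes (below), in 11 leukocyte genes (5.99, against 5.53 to 5.68 in the others) and in 15 mesenchymal and mural genes (6.15, against 5.71 to 5.94). The mean of 3 Y-linked genes was 4.06 in SP-C+ replicate 4 and 7.11 to 9.42 in the other SP-C+ arrays, and 3.87 to 4.02 in Axin2+ replicates 1, 3 and 5 against 8.85 and 9.24 in replicates 2 and 4.

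**Figure D1:**
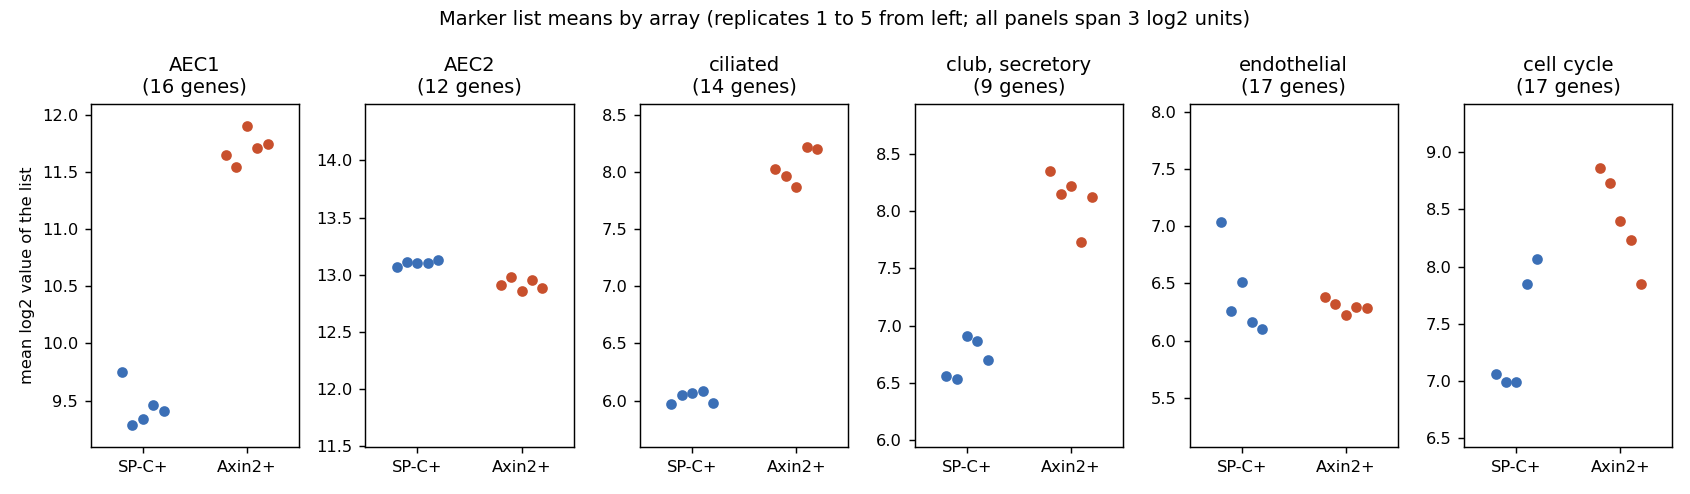
Mean log2 value of 6 marker gene lists (vertical axes, log2 units, each panel spanning the same number of units) for each array (points), by group (horizontal axis). The AEC1, ciliated and club lists were higher in all Axin2+ arrays than in any SP-C+ array, the AEC2 list was slightly lower in all of them, endothelial genes were highest in SP-C+ replicate 1 (7.04), and cell cycle genes were lowest in SP-C+ replicates 1, 2 and 3.

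The question was which Notch genes differed between the Axin2+ and the SP-C+ cells. Lfng, Maml2 and Hes1 were higher in Axin2+ arrays, and Dll4, Jag1 and Notch1 were lower. Lfng moved most, 2.10-fold higher, and Dll4 was 1.65-fold lower. Jag2, Notch2, Notch3 and Dll1 did not pass the test. Calls rest on limma, with p-values adjusted by Benjamini-Hochberg over all 22180 genes and a threshold of 0.05. Each difference below is the Axin2+ mean less the SP-C+ mean in log2 units, given with its moderated standard error (SE). Of the 10 genes 3 were called higher, against 8.61% of all genes, and 3 lower, against 8.95%. The groups did not overlap for 4 of the 10, against 15.0% of all genes. As the 10 genes were chosen with earlier results of these data known, these shares are a description only. The median difference of the 10 was -0.02, beside -0.05 over all genes. As RNA came from many cells at once, fewer cells of a type and less RNA per cell cannot be told apart.

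**Figure D2:**
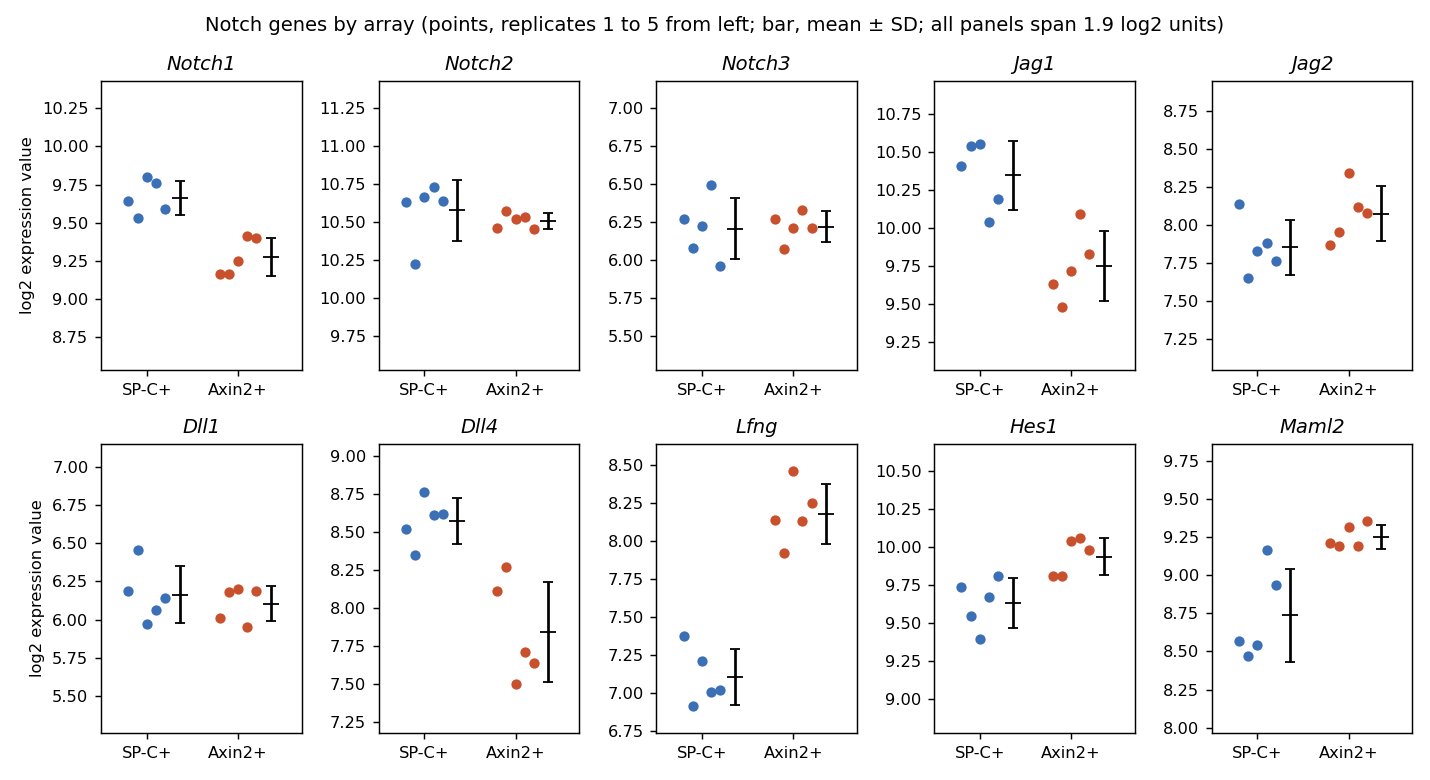
Log2 expression values (vertical axes, each panel spanning the same number of log2 units) of the 10 Notch genes in the SP-C+ and Axin2+ arrays (horizontal axis). Points are single arrays in the order of their replicate numbers, and bars are the mean ± SD of 5 arrays. The groups are apart for Notch1, Dll4, Lfng and Maml2; Jag1 and Hes1 overlap slightly, and in Maml2 SP-C+ replicates 4 and 5 lie nearest to the Axin2+ arrays.

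Receptors came first. Notch1, the receptor used by endothelium and many epithelia (probe set 17383052), measured 9.64, 9.53, 9.80, 9.76 and 9.59 in SP-C+ replicates 1 to 5 and 9.16, 9.16, 9.25, 9.41 and 9.40 in Axin2+ replicates 1 to 5. Every Axin2+ array lay below every SP-C+ array. The means were 9.66 ± 0.11 (SD, n = 5) and 9.28 ± 0.13, and Notch1 fell by 0.39 (SE 0.09, adjusted p = 0.00676 in limma), which is 1.31-fold.

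Notch2, the other receptor with a broad epithelial role, measured 10.63, 10.22, 10.66, 10.73 and 10.64 in SP-C+ and 10.46, 10.57, 10.52, 10.53 and 10.45 in Axin2+ arrays. SP-C+ replicate 2 was the lowest of all 10 arrays, and the Axin2+ arrays lay within the SP-C+ range. The difference was -0.07, with a 95% interval of -0.28 to 0.14 (adjusted p = 0.690 in limma). Without SP-C+ replicate 2 it was -0.16 (adjusted p = 0.157). Notch3, a receptor known from the mural cells of vessels, lay between 5.96 and 6.49 in SP-C+ and between 6.07 and 6.33 in Axin2+ arrays, a difference of 0.01 (interval -0.20 to 0.23, adjusted p = 0.951 in limma). It lay above the median gene on 1 of 10 arrays. Pdgfrb, a defining gene of mural cells, measured 5.73 ± 0.26 and 5.67 ± 0.28 (SD, n = 5) in the same arrays.

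Of the 4 ligand genes Jag1, Jag2, Dll1 and Dll4, the Delta-like gene Dll4 (probe set 17374792), best known from the tip cells of growing vessels, was lower by the largest step. It measured 8.52, 8.35, 8.76, 8.61 and 8.62 in SP-C+ and 8.11, 8.27, 7.50, 7.71 and 7.64 in Axin2+ arrays. The groups did not overlap, although Axin2+ replicates 1 and 2 lay close to the lowest SP-C+ array. Dll4 fell by 0.73 (SE 0.14, adjusted p = 0.00313 in limma), from 8.57 ± 0.15 (SD, n = 5) to 7.84 ± 0.33.

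Dll4 and Notch1 are also vascular genes, so endothelial markers were read in the same arrays. Of 17 such markers limma called 0 higher and 0 lower, against 8.61% and 8.95% of all genes, with 2 at an unadjusted p under 0.05, against 29.3% of all genes, and their median difference was -0.14. Their mean was 7.04 in SP-C+ replicate 1, 6.10 to 6.51 in the other SP-C+ arrays and 6.22 to 6.38 in Axin2+ arrays. None of the 17 lay below the 25th percentile of genes on all arrays, and 4 lay above the median gene on all of them. Pecam1, the CD31 gene used in the gate, measured 7.12 ± 0.67 (SD, n = 5) in SP-C+ and 6.82 ± 0.16 in Axin2+ arrays, and Cdh5, VE-cadherin, measured 8.22 ± 0.89 and 7.97 ± 0.22. Without SP-C+ replicate 1, where endothelial genes were highest, the differences were -0.74 for Dll4 and -0.39 for Notch1, and both were called; the part of endothelial genes in them was not tested.

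Jag1, a Jagged ligand with known roles in airway and vessel development (probe set 17392151), measured 10.41, 10.54, 10.55, 10.04 and 10.19 in SP-C+ and 9.63, 9.48, 9.72, 10.09 and 9.83 in Axin2+ arrays. The overlap came from SP-C+ replicate 4, at 10.04, and Axin2+ replicate 4, at 10.09. The means were 10.34 ± 0.23 (SD, n = 5) and 9.75 ± 0.23, and Jag1 fell by 0.59 (SE 0.13, adjusted p = 0.00651 in limma), which is 1.51-fold. Within the SP-C+ group Jag1 was lowest in replicates 4 and 5, where cell cycle genes were highest. Without SP-C+ replicates 1, 2 and 3 the difference was -0.36 and did not pass (adjusted p = 0.166); the part of the cell cycle genes in it was not tested.

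Jag2, the second Jagged ligand, measured 8.14, 7.65, 7.83, 7.88 and 7.76 in SP-C+ and 7.87, 7.95, 8.34, 8.12 and 8.08 in Axin2+ arrays. SP-C+ replicate 1 was the second highest of all arrays, and the groups overlapped. The difference was 0.22, with an interval of -0.02 to 0.46 (adjusted p = 0.205 in limma). Dll1, a Delta-like ligand of somites and of many progenitors, lay between 5.97 and 6.46 in SP-C+ and between 5.95 and 6.20 in Axin2+ arrays, a difference of -0.06 (interval -0.27 to 0.16, adjusted p = 0.752 in limma). Like Notch3 it lay above the median gene on 1 of 10 arrays, and its other probe set gave 0.20 (adjusted p = 0.205 over all probe sets), so no direction can be given for Dll1.

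Lfng encodes lunatic fringe, the glycosyltransferase that lengthens O-fucose on Notch receptors (probe set 17444106). It measured 7.38, 6.92, 7.21, 7.01 and 7.02 in SP-C+ and 8.14, 7.92, 8.46, 8.13 and 8.25 in Axin2+ arrays. The lowest Axin2+ array lay clearly above the highest SP-C+ array. Lfng rose by 1.07 ± 0.11 (SE; adjusted p = 2.14e-05 in limma), from 7.11 ± 0.18 (SD, n = 5) to 8.18 ± 0.20, and the 95% interval of the fold was 1.77 to 2.50. Most AEC1, ciliated and club markers were higher in the same arrays, with 16 of 16, 12 of 14 and 7 of 9 called, against 8.61% of all genes. Their median differences were 2.63, 1.95 and 1.68. Of the ciliated list Ccno was called lower, at -0.75 (adjusted p = 7.71e-05 in limma), and Mcidas did not pass, at -0.18. In the club list Muc5b and Bpifa1 did not pass, at -0.23 and -0.14. The part of these markers in the Lfng result was not tested.

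Promoter windows are shown for Lfng and Dll4, which moved furthest up and down, and for a Maml2 start site. The windows come from RefSeq (GRCm38.p6) and reach from 250 bases before to 50 bases after an annotated start. They covered 9 of the 10 genes (not Hes1) in 11 windows. Each was searched on both strands for TGGGAA, the core that RBPJ binds, and for CTTTGAT, a core of the TCF/LEF factors of Wnt signalling; these motifs do not overlap. The sequences below are 5′ to 3′ on the gene's strand, with RBPJ core matches in capitals.
Lfng (chr5:140607091-140607390, + strand): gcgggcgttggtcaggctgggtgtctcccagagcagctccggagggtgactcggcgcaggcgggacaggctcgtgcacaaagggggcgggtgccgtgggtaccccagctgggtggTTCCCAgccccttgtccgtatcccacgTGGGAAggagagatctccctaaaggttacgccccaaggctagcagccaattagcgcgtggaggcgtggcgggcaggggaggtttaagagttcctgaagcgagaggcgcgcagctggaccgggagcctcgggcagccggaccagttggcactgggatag
Maml2 (chr9:13662210-13662509, + strand): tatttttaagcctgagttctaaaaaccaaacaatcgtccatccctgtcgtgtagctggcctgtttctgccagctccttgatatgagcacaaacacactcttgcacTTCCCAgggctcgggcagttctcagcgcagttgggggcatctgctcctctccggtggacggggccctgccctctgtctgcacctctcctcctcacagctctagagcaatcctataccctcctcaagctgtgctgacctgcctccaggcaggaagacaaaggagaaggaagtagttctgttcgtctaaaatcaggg
Dll4 (chr2:119325534-119325833, + strand): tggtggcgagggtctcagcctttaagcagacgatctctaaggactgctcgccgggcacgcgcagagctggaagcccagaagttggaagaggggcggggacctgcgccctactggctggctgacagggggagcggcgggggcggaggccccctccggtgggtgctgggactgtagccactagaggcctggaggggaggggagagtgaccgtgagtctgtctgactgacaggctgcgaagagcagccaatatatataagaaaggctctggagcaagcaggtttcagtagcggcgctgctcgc
The Lfng window holds 2 core matches, starting 135 and 108 bases before the start site, the first read as TTCCCA on the gene's strand and the second as TGGGAA. The window of a Maml2 start holds 1, starting 145 bases before it, and the window of the other Maml2 start holds none. In all, 2 of the 11 windows (18.2%) held the RBPJ core, against 25.6% of all 32851 windows of that length. The TCF/LEF core was in 0 of the 11 and in 3.73% of all windows. A match of letters describes the sequence only.

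Maml2 encodes a Mastermind-like coactivator, which bridges the Notch intracellular domain and RBPJ to the transcription machinery (probe set 17514678). It measured 8.57, 8.47, 8.54, 9.17 and 8.94 in SP-C+ and 9.21, 9.19, 9.32, 9.19 and 9.36 in Axin2+ arrays. The Axin2+ arrays were tightly grouped, while SP-C+ replicates 4 and 5 lay far above replicates 1, 2 and 3. Maml2 rose by 0.52 ± 0.13 (SE; adjusted p = 0.0134 in limma), or 1.43-fold, from 8.74 ± 0.30 (SD, n = 5) to 9.25 ± 0.08. Against SP-C+ replicates 4 and 5 alone the difference was 0.20 and did not pass (adjusted p = 0.250), and against replicates 1, 2 and 3 it was 0.73 (adjusted p = 1.13e-04). Cell cycle genes were likewise higher in SP-C+ replicates 4 and 5 than in the other SP-C+ arrays; their part in the Maml2 values was not tested.

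Hes1, a bHLH repressor gene and a classical Notch target that other pathways also regulate (probe set 17324623), measured 9.74, 9.55, 9.40, 9.67 and 9.81 in SP-C+ and 9.81, 9.81, 10.04, 10.06 and 9.98 in Axin2+ arrays. SP-C+ replicate 5 reached the lowest Axin2+ arrays. The difference was 0.31 ± 0.09 (SE; adjusted p = 0.0416 in limma), from 9.63 ± 0.16 (SD, n = 5) to 9.94 ± 0.12. This call lay close to the threshold: it ended when each array's median was subtracted (0.21, adjusted p = 0.134), with Y-linked expression as a covariate (adjusted p = 0.0905), with the replicate number as a block (adjusted p = 0.0875), with all probe sets tested (adjusted p = 0.0790) and in 6 of 10 fits without 1 array (without SP-C+ replicate 2, 3 or 4, or Axin2+ replicate 3, 4 or 5; adjusted p up to 0.102). Against SP-C+ replicates 4 and 5 alone it was 0.20 (adjusted p = 0.279).

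**Figure D3:**
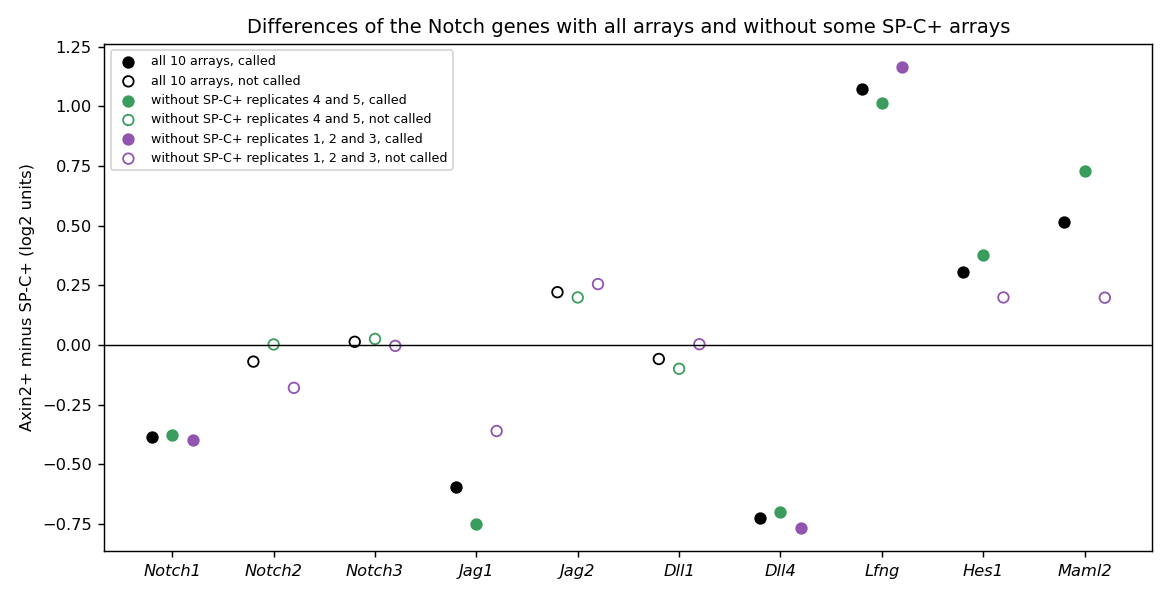
Difference between groups (vertical axis, Axin2+ minus SP-C+ in log2 units) for the 10 Notch genes (horizontal axis) with all 10 arrays, without SP-C+ replicates 4 and 5, and without SP-C+ replicates 1, 2 and 3; filled points passed the threshold of limma and open points did not. Notch1, Dll4 and Lfng stay close together and filled in all 3 sets, while Jag1 and Maml2 shrink to -0.36 and 0.20 without SP-C+ replicates 1, 2 and 3.

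The called genes were also read side by side in these smaller sets of SP-C+ arrays. The sets follow the split already seen in the cell cycle list and in Maml2, so the outcome is a description only. Lfng (1.01 without SP-C+ replicates 4 and 5, 1.17 without replicates 1, 2 and 3), Dll4 (-0.70 and -0.77) and Notch1 (-0.38 and -0.40) passed in both sets. Of these sets Jag1, Maml2 and Hes1 passed in the one without replicates 4 and 5 and not in the other. In the first set 9.57% of all genes were called higher and 9.82% lower, and in the second, with fewer arrays, 6.78% and 6.02%. With fewer arrays a call can be lost without a smaller difference.

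The rest of the pathway was read from 49 further genes of 7 roles, of which 46 were measured. Of these 3 were higher (6.52%) and 5 lower (10.9%), shares close to those of all genes (8.61% and 8.95%), with a median of -0.10 against -0.05 over all genes. Among glycosylation enzymes Poglut1, which adds O-glucose to Notch, was 1 of 5 called, at 0.40 ± 0.10 SE (adjusted p = 0.0192 in limma). It lay between 7.96 and 8.28 in SP-C+ and between 8.34 and 8.83 in Axin2+ arrays. Its call ended with the Y-linked covariate (0.35, adjusted p = 0.0589) and in both smaller sets of SP-C+ arrays, at 0.36 with replicates 4 and 5 left out (adjusted p = 0.0674) and 0.45 with replicates 1, 2 and 3 left out (adjusted p = 0.0666). The fringe genes Mfng and Rfng did not pass, at -0.06 and -0.15.

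Of 8 measured proteases, Adam10 rose and Furin fell. Adam10, the sheddase that makes the first ligand-dependent cut, lay between 9.87 and 10.19 in SP-C+ and between 10.46 and 10.79 in Axin2+ arrays. The groups did not overlap, and the difference was 0.55 ± 0.09 SE (adjusted p = 7.47e-04 in limma). Furin, the convertase that cleaves newly made receptors in the secretory pathway, lay between 10.32 and 10.63 in SP-C+ and between 9.89 and 10.11 in Axin2+ arrays and fell by 0.45 (SE 0.08, adjusted p = 0.00158 in limma). Adam17, the related sheddase, was at -0.24 and did not pass (adjusted p = 0.0534), although its groups did not overlap. The gamma-secretase genes Psen2, Ncstn, Aph1a, Aph1b and Psenen did not pass, with differences from -0.19 to 0.27.

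Of 7 further nuclear factors 2 were lower (8.95% of all genes) and 0 higher (8.61%), with 3 at an unadjusted p under 0.05 in limma (29.3% of all genes). Maml3, another Mastermind-like coactivator, measured 9.85, 9.68, 9.70, 10.05 and 9.98 in SP-C+ and 9.45, 9.68, 9.13, 9.35 and 9.23 in Axin2+ arrays. It fell by 0.48 (SE 0.11, adjusted p = 0.0101 in limma), with an overlap only between Axin2+ replicate 2 and SP-C+ replicate 2. Maml1 was at -0.20 and did not pass (adjusted p = 0.116). Without SP-C+ replicates 4 and 5, where Maml3 was highest, it was at -0.37 (adjusted p = 0.0582). Spen, which encodes a corepressor partner of RBPJ, fell by 0.22 (SE 0.07, adjusted p = 0.0364 in limma), which no longer passed in 8 of the 10 fits that left out 1 array (without SP-C+ replicate 3, 4 or 5 or any Axin2+ replicate; adjusted p up to 0.0923) with the replicate block (adjusted p = 0.106), with all probe sets tested (0.0654), and without SP-C+ replicates 4 and 5 (0.107) or 1, 2 and 3 (0.0895). Rbpj itself was at -0.04 (interval -0.25 to 0.16).

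Of 12 genes of ligand endocytosis and receptor turnover, 1 was higher (8.33%, against 8.61% of all genes) and 2 lower (16.7%, against 8.95%). These 3 were genes of the Deltex family of ubiquitin ligases and went in both directions. Dtx1, also of that family, was at 0.13 and did not pass (adjusted p = 0.349 in limma). Dtx2 and Dtx4 fell by 0.49 (SE 0.09, adjusted p = 0.00256 in limma) and 0.52 (SE 0.13, adjusted p = 0.0115). Dtx2 lay between 8.34 and 8.88 in SP-C+ and between 8.04 and 8.16 in Axin2+ arrays. Dtx4 measured 9.52, 9.37, 9.37, 8.85 and 9.05 in SP-C+ and 8.62, 8.79, 8.54, 8.88 and 8.74 in Axin2+ arrays. As in Jag1, SP-C+ replicates 4 and 5 were the lowest of their group, and without replicates 1, 2 and 3 Dtx4 was at -0.24 (adjusted p = 0.234). Dtx3 was higher by 0.33 ± 0.10 SE (adjusted p = 0.0324), which no longer passed in 5 of the 10 fits that left out 1 array (without SP-C+ replicate 1 or 2 or Axin2+ replicate 3, 4 or 5; adjusted p up to 0.0792), with median centring (0.24, adjusted p = 0.0933), with all probe sets tested (adjusted p = 0.0642) and with the Y-linked covariate (adjusted p = 0.0875). Without SP-C+ replicates 1, 2 and 3 it was at 0.17 (adjusted p = 0.279).

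No further gene listed as a target passed beside Hes1. The list takes in genes of the Hes and Hey families and Nrarp, and whether Notch controls each of them was not tested. The 9 measured were Hes2, Hes3, Hes5, Hes6, Hes7, Hey1, Hey2, Heyl and Nrarp. Limma called 0 of them higher (8.61% of all genes) and 0 lower (8.95%), with 1 at an unadjusted p under 0.05 (29.3%). All differences were below 0, from -0.44 to -0.01, with a median of -0.11 against -0.05 over all genes. Only 2 of the 9 lay above the median gene on all arrays. Nrarp, a feedback inhibitor that Notch induces, was at -0.44 (interval -0.76 to -0.11, adjusted p = 0.0647), and Hey1, a bHLH repressor of the Notch response, at -0.34 (interval -0.72 to 0.04, adjusted p = 0.227). Nrarp measured 7.06, 7.31, 7.23, 6.62 and 6.70 in SP-C+ and 6.94, 6.55, 6.37, 6.44 and 6.45 in Axin2+ arrays. Its SP-C+ replicates 4 and 5 lay within the Axin2+ range. The remaining receptor, Notch4, was at -0.04 (interval -0.25 to 0.17). Of the other ligand genes limma called 0 of 4, with 1 at an unadjusted p under 0.05; this was Dlk1, a non-canonical ligand of fetal tissues, at -0.94 (interval -1.66 to -0.23, adjusted p = 0.0668), which spread from 9.08 to 11.03 in Axin2+ arrays alone.

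**Figure D4:**
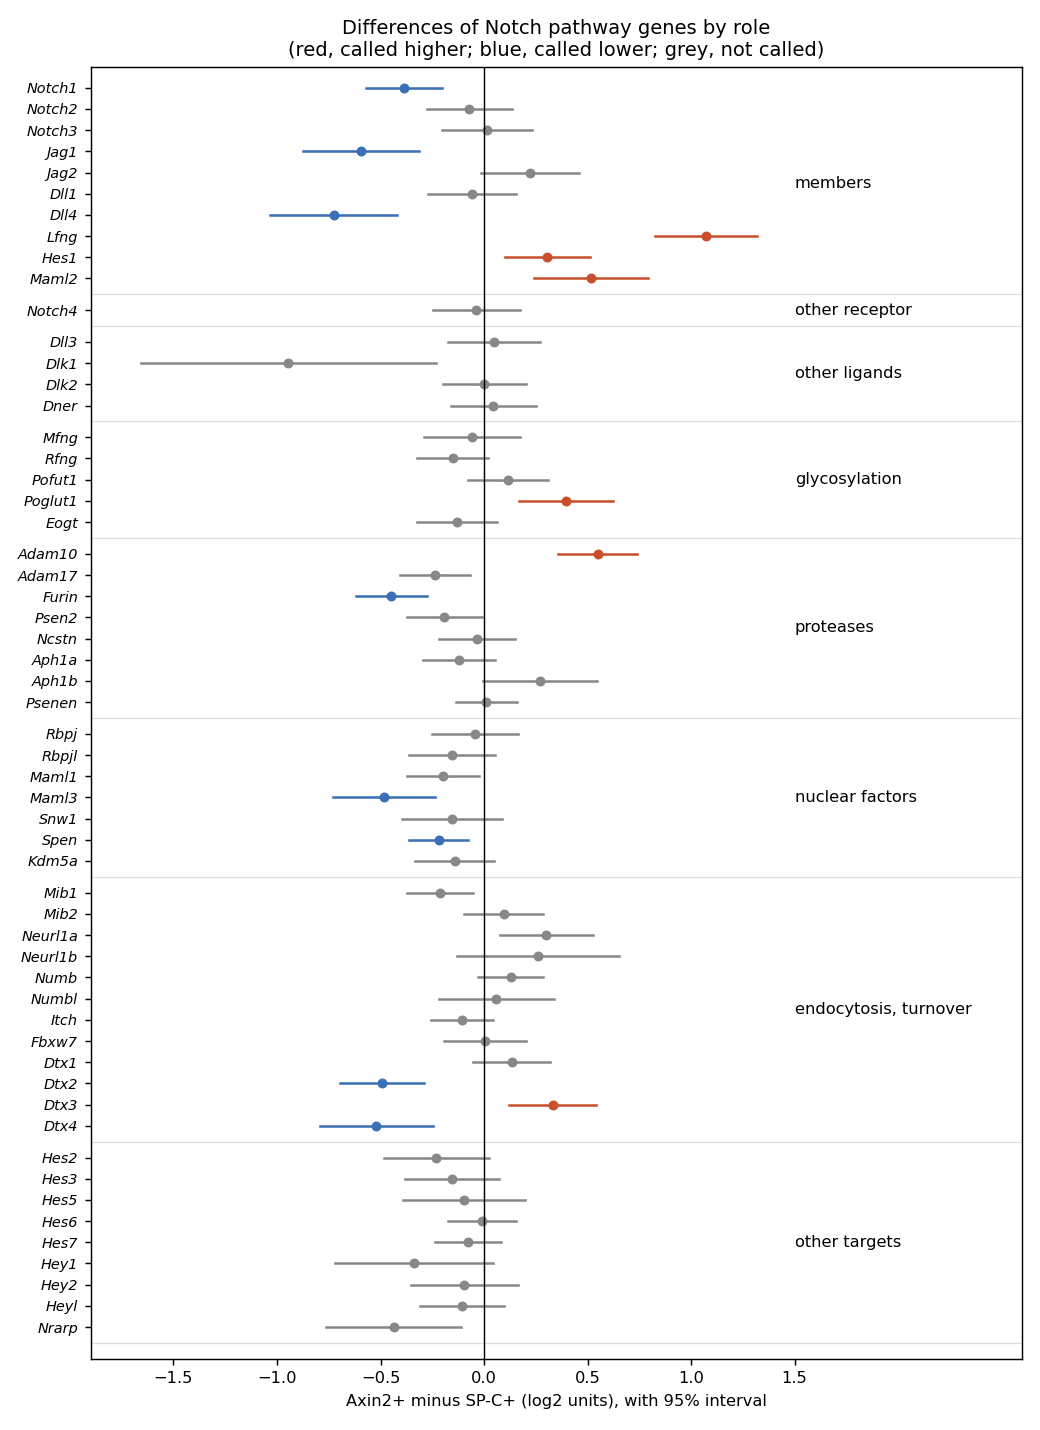
Difference between groups (horizontal axis, Axin2+ minus SP-C+ in log2 units; point, estimate; line, unadjusted 95% interval) for the 10 Notch genes and 46 further pathway genes (vertical axis), by role. Lfng at 1.07 lies furthest right, and the called genes at the left are Notch1, Jag1, Dll4, Furin, Maml3, Spen, Dtx2 and Dtx4. The genes listed as targets other than Hes1 lie from -0.44 to -0.01, without a call.

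The scaling of the arrays bore on calls in both directions. Over the 22180 genes, whose values are those of their brightest probe sets, array medians lay between 6.27 and 6.32 in SP-C+ and between 6.37 and 6.43 in Axin2+ arrays, a difference of 0.09 between the group means, and subtracting each array's median changed the calls over all genes from 1909 higher and 1985 lower to 1561 and 4412. With it 2 of the 10 Notch genes were higher, against 7.04% of all genes, and 3 lower, against 19.9%. Of the 46 further genes 2 were higher and 12 lower.

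For each called Notch gene the named genes whose values followed it most closely over the 10 arrays were listed, as a description; the arrays share the group difference, so Pearson's r is high for many genes. Lfng was followed by Cavin2, a caveolar coat protein gene (r = 0.994), and Myo1c, a myosin gene (0.992), and 767 genes had r above 0.9. Jag1 was followed by Sftpd, the surfactant protein D gene (0.982), and Stam, an endosomal sorting gene (0.980), with 211 genes above 0.9. Notch1 was followed by Slc38a7, an amino acid transporter gene (0.985), and Tnfaip8l3 (0.982), and Dll4 by Ranbp17 (0.978) and Ppp1r14c (0.968). Maml2 was followed by Peak1, a pseudokinase gene (0.985), and Cadm1, a cell adhesion gene (0.969), and Hes1 by Arhgap5 (0.953) and Magi1, a junction scaffold gene (0.953), with 31 genes above 0.9 for Hes1.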

How the data were processed

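RNA of 5 SP-C+ and 5 Axin2+ samples, 100 ng each, was amplified from poly(T)-primed cDNA, labelled with biotin (an Affymetrix kit) and measured on expression arrays, per the labels' protocols. The deposited table holds normalized log2 values of 41345 probe sets. Oligo, RMA and limma are named in the submitters' processing notes, with neither versions nor roles. That the base is 2 follows from the values, which ran from 1.69 to 14.16. Such values understate differences of dim genes.

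The platform's annotation gave 23521 probe sets exactly 1 symbol, 1814 several and 16010 none. Probe sets with 1 symbol were kept, and for each gene the one with the highest mean over all arrays, which left 22180 genes. Groups came from the sample titles. The groups were compared over all genes by two-sided tests without covariates (lmFit and eBayes of limma 3.58.1, R 4.3.3; Benjamini-Hochberg adjustment), after the fit was tested on simulated data. Intervals are 95% and unadjusted. The text names the 10 Notch genes, each called gene of the further Notch lists, some that did not pass, chosen after their values were seen, and the 2 genes most correlated with each called Notch gene, without predicted genes. Marker lists are given as counts and means, with some of their genes named. They share no gene with the Notch lists. The members, lists and alternatives were chosen with earlier results of these data known. Alternatives were array weights, a variance trend with robust eBayes, scaling by array medians or quantiles, a block for the replicate number, a Y-linked covariate, stricter thresholds, filters at the 25th and 50th percentile, other ways to treat probe sets, and leaving out arrays. Array batches were not examined, since scan dates were not used here.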

Additional observations from a re-analysis of the deposited data

Results flagged for a closer look

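SP-C+ replicate 2 was far from the other arrays of its group in Notch2, at 10.22 against 10.63 to 10.73. Axin2+ replicate 2 was far from the other arrays of its group in Spen, at 8.60 against 8.72 to 8.77. These were the 2 such arrays found in 36 groups of 5 values (18 genes), and chance gives about 5%.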

How the results depend on the processing

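Lfng and Dll4 kept their direction and their call under all 24 alternatives, with differences of 0.98 to 1.17 and -0.83 to -0.64. Notch1 kept its call in all but the one that asked for a difference of at least 0.5. Leaving out 1 array at a time, 2 to 3 of the 10 Notch genes were higher and 3 lower in each fit, and of the 46 further genes 2 to 4 were higher and 4 to 6 lower. At an adjusted p under 0.01, 1 Notch gene was higher and 3 lower, and 1 and 2 further genes were higher and lower. Without SP-C+ replicates 1, 2 and 3, 1 Notch gene was higher and 2 lower, and 1 and 3 further genes were higher and lower. In that set 6.78% of all genes were higher and 6.02% lower. With a difference of at least 0.5 required, 1 further gene was higher and 1 lower, and with the Y-linked covariate 1 was higher and 5 lower. Lower further genes numbered 12 with median centring, against 19.9% of all genes, and 8 without SP-C+ replicates 4 and 5, against 9.82%. Above the 50th percentile 9 of 37 were lower, with fewer genes tested and the share of all genes not given here. Where not stated, the cause was not tested.

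Of the 10 Notch genes and the 8 further called genes, those that changed sign had no call. Dll1 was at 0.069 as a mean over probe sets, 0.20 in its other probe set, 0.003 without SP-C+ replicates 1, 2 and 3 and from -0.108 to 0.015 without 1 array. Notch2 was at 0.002 without SP-C+ replicates 4 and 5, -0.18 without SP-C+ replicates 1, 2 and 3, -0.164 with median centring and from -0.159 to -0.031 without 1 array. Notch3 was at -0.08 with median centring, -0.071 with quantile normalization, -0.05 with the Y-linked covariate, -0.004 without SP-C+ replicates 1, 2 and 3 and from -0.049 to 0.084 without 1 array. Notch3 and Dll1 lay below the 50th percentile filter.

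The replicate numbers showed no pairing: deviations of same-numbered arrays correlated at -0.229 to 0.013, and 0 of 5 arrays matched their own number best. With the replicate block 2 Notch genes were higher and 3 lower, Hes1 losing its call.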
